A study of Arabidopsis thaliana with 8 samples.

Results

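Cell division in the *Arabidopsis thaliana* rosette was followed through 50 genes of the cell cycle and of DNA replication, chosen by their gene identifiers from 34133 annotated genes. They comprise 6 D-type cyclins placed in G1, 15 genes of DNA replication and of early S phase (S), 25 genes of G2 and mitosis (G2/M), 3 inhibitors of cyclin-dependent kinases (CDKs) and *CDKA-1* (AT3G48750), the kinase that works through all phases. The rule that chose them uses gene identifiers and no threshold on a measured value, and the classes follow textbook roles. Cyclins and CDKs are written here with a hyphen, so that *CYCB1-2* is the gene usually written with a semicolon before its last digit.

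The RNA came from 8 libraries in 4 groups of 2, each library made from the entire rosettes of 2 plants about 3 weeks old. WT IM and *ros1* IM are Col-0 wild type and the *ros1* mutant, collected 48 h after spraying with imazethapyr at 10.6 g per ha in 0.5% v/v of the adjuvant Dash. WT control and *ros1* control are the same genotypes without the herbicide, and whether they received Dash is not stated. Imazethapyr blocks acetolactate synthase, which makes branched-chain amino acids. The *ros1* plants carry 1 T-DNA allele (SALK_064264) of the DNA demethylase gene *ROS1*, which lowers the transcript without removing it. *ROS1* (AT2G36490) had 4.08 FPKM (fragments per kilobase of transcript, scaled to the mapped reads) in *ros1* IM and 16.7 in WT IM, and 19.0 FPKM in *ros1* control and 25.0 in WT control. The treated pair was therefore 4.09-fold apart and the control pair 1.32-fold.

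The deposited values are 1 pooled FPKM per gene and group. No value per library was used here, so no spread between replicates is known, no difference below was tested, and each ratio describes these pooled libraries. A gene is called lower or higher where the ratio of the pooled FPKM of both groups is at least 2-fold and at least 1 of the groups has an FPKM of at least 1. All 50 genes have a value in WT IM, WT control and *ros1* control. In *ros1* IM 41 have one, because the tables that hold this group list only genes that the authors marked as changed in some comparison. The 9 without a value include 7 of the G2/M class (*CYCA1-1*, *CYCA2-1*, *CYCA2-4*, *CYCB1-4*, *CYCB2-1*, *AUR2* and *AUR3*), *CDKA-1* and the inhibitor *SMR1*.

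D-type cyclins join a CDK in G1 and, by phosphorylating the retinoblastoma protein, release E2F factors that switch on the genes of DNA synthesis. Origin licensing factors and the MCM helicase then open the DNA, and PCNA holds the polymerases on it. Entry into mitosis runs on A- and B-type cyclins with the plant-specific B-type CDKs, whose genes are activated as a wave by MYB3R factors through the mitosis-specific activator (MSA) element. In a rosette, dividing cells sit in the shoot apex and in the youngest leaves, and older leaf cells have left the cycle or copy DNA without dividing.

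The stretch before the start of the gene is shown for 6 genes in which one of these elements was found and which belong to the classes compared below, and for the inhibitor *KRP1*, which holds the element and did not follow the mitotic genes. Each line has the 150 bases upstream of the start, 5′ to 3′ on the strand of the gene. Capitals mark the MSA core AACGG in the 4 mitotic genes and *KRP1*, and the E2F site in *MCM2* and *MCM4*, on either strand. The sequences are RefSeq's, of build TAIR10.1.

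*CYCB1-2*, chr5:1861704-1861853, minus strand: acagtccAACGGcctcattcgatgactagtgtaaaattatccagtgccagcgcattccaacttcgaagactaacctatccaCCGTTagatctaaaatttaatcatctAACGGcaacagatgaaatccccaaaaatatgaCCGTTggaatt
*CYCB1-3*, chr3:3627274-3627423, minus strand: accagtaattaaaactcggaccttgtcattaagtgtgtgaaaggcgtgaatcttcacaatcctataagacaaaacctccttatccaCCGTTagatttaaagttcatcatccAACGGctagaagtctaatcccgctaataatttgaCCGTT
*CYCB2-3*, chr1:7137829-7137978, minus strand: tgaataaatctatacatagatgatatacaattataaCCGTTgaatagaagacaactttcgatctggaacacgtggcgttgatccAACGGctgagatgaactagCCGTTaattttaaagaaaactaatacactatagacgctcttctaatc
*HIK*, chr1:6324379-6324528, minus strand: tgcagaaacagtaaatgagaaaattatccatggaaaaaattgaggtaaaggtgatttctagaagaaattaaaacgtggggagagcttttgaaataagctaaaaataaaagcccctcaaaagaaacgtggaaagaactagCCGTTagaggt
*MCM2*, chr1:16970064-16970213, plus strand: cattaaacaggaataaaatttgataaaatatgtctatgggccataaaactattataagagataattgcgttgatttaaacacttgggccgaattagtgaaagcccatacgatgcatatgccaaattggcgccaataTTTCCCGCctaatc
*MCM4*, chr2:7130730-7130879, minus strand: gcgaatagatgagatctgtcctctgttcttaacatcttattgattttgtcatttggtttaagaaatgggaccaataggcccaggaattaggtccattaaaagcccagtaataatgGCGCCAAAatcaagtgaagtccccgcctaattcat
*KRP1*, chr2:9978091-9978240, minus strand: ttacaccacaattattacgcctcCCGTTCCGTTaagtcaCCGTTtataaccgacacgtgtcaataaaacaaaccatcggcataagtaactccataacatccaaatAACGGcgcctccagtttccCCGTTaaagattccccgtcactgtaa

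The motifs were counted on both strands in windows of 300 bases, 250 before and 50 after each start. The E2F site was searched as TTT, followed by C or G at 2 places, then CG and a last C or G, which makes 8 spellings. The ends of both motifs can overlap. The MSA core was found at least once in 16 of 25 G2/M windows, or 64.0%, in 5 of 15 S windows and in 1 of 6 G1 windows, against 24.7% of 27443 windows over all genes. At least 2 cores stood in 44.0% of the G2/M windows and in 4.89% of all windows. The E2F site was in 8 of 15 S windows, or 53.3%, in none of the G2/M windows and in 3.59% of all windows. *CYCB1-2* held 5 cores and *KRP1* held 7, more than any other of the 50 genes. These are matches of letters, and whether a factor binds there was not measured.

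Under imazethapyr the wild-type rosette had less transcript of most genes of the set, with the lowest ratios among the mitotic genes. In WT IM against WT control, 36 of 50 genes were lower and 1 was higher, where 18.7% of all genes with sufficient FPKM were lower and 14.8% were higher. The median log2 ratio was −1.95, beside 0.01 over all such genes. The G2/M class was lowest, with 22 of 25 genes called lower and a median of −2.42. The S class had 11 of 15 lower with a median of −1.29, and the G1 class 3 of 6 lower and 1 higher with a median of −1.44. Of the 50 genes, 6 were under an FPKM of 1 in WT IM only and 1, *CYCA2-1*, in both groups.

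**Figure D1:**
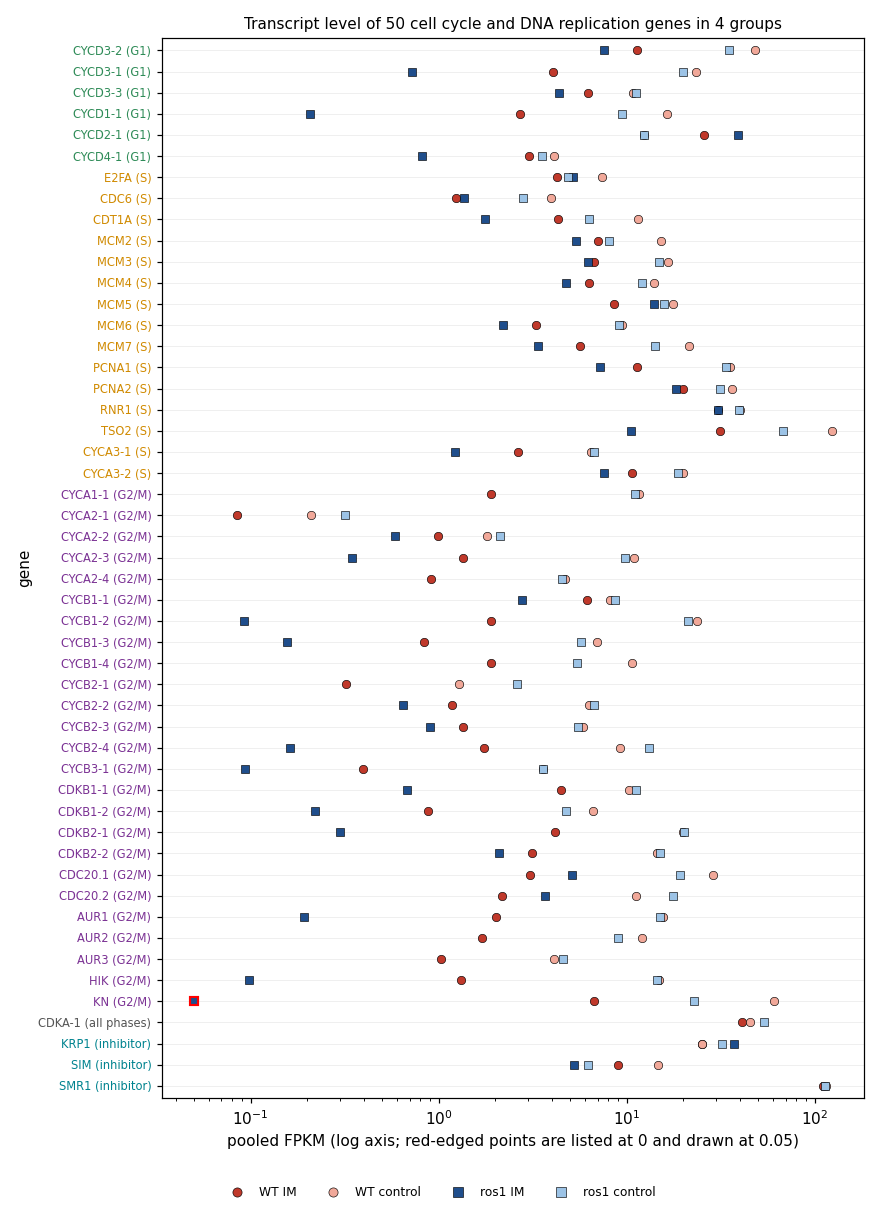
Pooled FPKM of each of the 50 genes on a log axis, 1 row per gene and grouped by class, with circles for WT IM and WT control and squares for *ros1* IM and *ros1* control. Most G2/M genes are spread far apart between treated and control groups, the S genes less so, and *KN* is listed at 0 in *ros1* IM and drawn at 0.05.

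In *ros1* the same direction was found, with the G2/M genes further down. In *ros1* IM against *ros1* control, 33 of 41 genes with a value were lower and 1 was higher, where 26.8% of all genes with values were lower and 20.7% higher. The median of the 41 was −2.21, beside 0.12 over all such genes. All 18 G2/M genes with a value were lower, with a median of −4.63, against 10 of 15 S genes with a median of −1.30 and 5 of 6 G1 genes with a median of −2.17. The 18 genes were selected by the authors' marking, so this count does not speak for the 7 without a value. In *ros1* IM 17 of the 41 genes were under an FPKM of 1, and ratios on such low values are imprecise to an extent that the pooled values do not show.

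**Figure D2:**
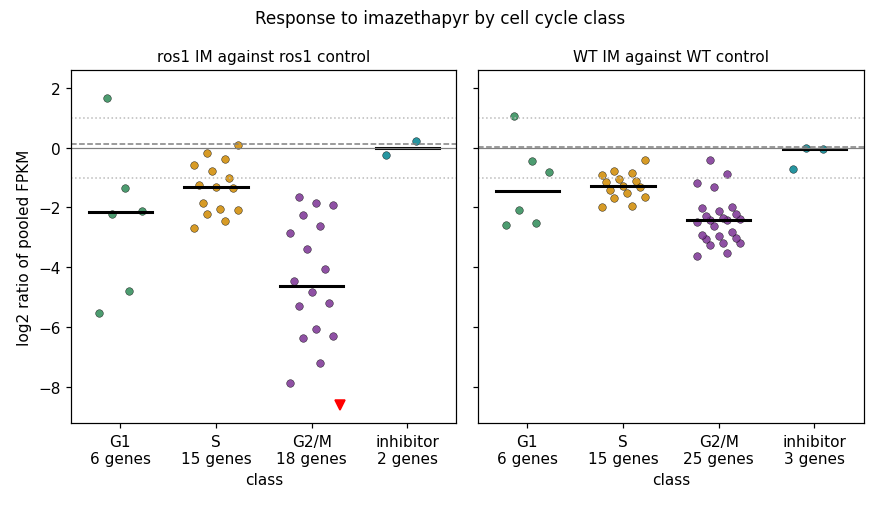
Log2 ratio of pooled FPKM for each gene by class, *ros1* IM against *ros1* control on the left and WT IM against WT control on the right, with black bars at the class medians, a dashed line at the median of all genes and dotted lines at 2-fold. The G2/M median is −4.63 in *ros1* and −2.42 in the wild type, while the S median is −1.30 in *ros1* and −1.29 in the wild type. The red triangle is *KN*, listed at 0 in *ros1* IM.

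Without the herbicide, few genes of this set were called different in the mutant, though the S and G1 classes lay slightly lower. Of the 15 S genes, 14 had a log2 ratio below 0 in *ros1* control against WT control, with a median of −0.20. In the G1 class 5 of 6 were below 0, with a median of −0.22, and in the G2/M class 13 of 25, with a median of −0.03. In *ros1* control against WT control, 2 genes of 50 were lower and 1 was higher, where 10.5% of all genes were lower and 6.55% higher, and the median was −0.08. The 3 genes were *KN* (22.9 FPKM in *ros1* control and 60.4 in WT control), *SIM* (6.25 and 14.7, in the same order of groups) and *CYCB2-1*, with 2.61 FPKM in *ros1* control and 1.29 in WT control. In *ros1* IM against WT IM, 15 of 41 genes were lower and none was higher. Over all genes with values and sufficient FPKM, 22.9% were lower and 13.2% higher. Of the 41 genes, 13 were under an FPKM of 1 in *ros1* IM only and 4 in both groups, so most of these calls rest on low values. The 41 have a value through the authors' marking, so the count does not speak for the genes without one. The comparisons share groups, so they are not independent of each other.

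Among the D-type cyclins, the CYCD3 genes hold young leaf cells in division. *CYCD3-1* (AT4G34160) had 4.08 FPKM in WT IM and 23.3 in WT control, and 0.723 in *ros1* IM against 20.0 in *ros1* control. *CYCD3-2* (AT5G67260) had 11.4 FPKM in WT IM and 48.2 in WT control, and 7.53 in *ros1* IM against 34.9 in *ros1* control. The third, *CYCD3-3* (AT3G50070), was closest to its controls of these, with 6.2 FPKM in WT IM and 10.8 in WT control, and 4.39 in *ros1* IM against 11.2 in *ros1* control. *CYCD3-1* was thus 27.6-fold lower in *ros1* against 5.71-fold in the wild type, while *CYCD3-2* was 4.63-fold lower in *ros1* and 4.22-fold in the wild type.

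*CYCD1-1* (AT1G70210) had 2.70 FPKM in WT IM and 16.4 in WT control, and 0.206 in *ros1* IM against 9.47 in *ros1* control, the lowest ratios of the class in both genotypes. *CYCD4-1* (AT5G65420) was 4.35-fold lower in *ros1* IM (0.817 against 3.55 FPKM in *ros1* control) and 1.36-fold lower in WT IM (3.03 against 4.13 FPKM in WT control). *CYCD2-1* (AT2G22490) was the single gene of the 50 called higher in either response to imazethapyr. It had 25.8 FPKM in WT IM and 12.3 in WT control, and 38.9 in *ros1* IM against 12.3 in *ros1* control. In the treated groups it was the most abundant of the 6 D-type cyclins, and in both control groups *CYCD3-2* was.

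In the S class, the 6 subunits of the MCM helicase lay close together in the wild type. All 6 were lower in WT IM, by 2.06-fold (*MCM5*, AT2G07690) to 3.83-fold (*MCM7*, AT4G02060). In *ros1* they spread out. *MCM6* (AT5G44635) had 2.19 FPKM in *ros1* IM and 9.09 in *ros1* control, and 3.29 in WT IM against 9.40 in WT control. *MCM5* had 14.0 FPKM in *ros1* IM and 15.7 in *ros1* control, and 8.58 in WT IM against 17.7 in WT control. *MCM2* (AT1G44900) had 5.39 FPKM in *ros1* IM and 8.08 in *ros1* control, against 7.0 in WT IM and 15.2 in WT control. *MCM3* (AT5G46280) and *MCM4* (AT2G16440) were 2.36-fold and 2.55-fold lower in *ros1* IM, and 2.45-fold and 2.2-fold lower in WT IM.

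The 2 licensing genes of the set, whose products help load the helicase, were lower in both genotypes. Other loading factors are among the 14 further replication genes below, most of which were not called lower. *CDC6* (AT2G29680) had 1.24 FPKM in WT IM and 3.95 in WT control, and 1.37 in *ros1* IM against 2.81 in *ros1* control. *CDT1A* (AT2G31270) had 4.33 FPKM in WT IM and 11.5 in WT control, and 1.76 in *ros1* IM against 6.34 in *ros1* control. *E2FA* (AT2G36010), the E2F factor that promotes S phase, had 4.27 FPKM in WT IM and 7.36 in WT control, and 5.16 in *ros1* IM against 4.85 in *ros1* control. It was the single S gene with a log2 ratio above 0 in *ros1* (0.09), and taken relative to the median of all genes with sufficient FPKM in both groups (0.16) this ratio was below 0.

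Ribonucleotide reductase supplies deoxynucleotides, and its 2 genes in the set differed. *TSO2* (AT3G27060), a small subunit, was the most abundant gene of the set in WT control, with 123 FPKM there and 31.5 in WT IM, and it had 10.5 in *ros1* IM against 67.8 in *ros1* control. The large subunit *RNR1* (AT2G21790) had 30.5 FPKM in WT IM and 40.1 in WT control, and 30.5 in *ros1* IM against 39.8 in *ros1* control. Thus *TSO2* was 6.49-fold lower in *ros1* and 3.91-fold lower in the wild type, where *RNR1* was 1.31-fold lower in *ros1* and 1.32-fold lower in the wild type. The *RNR1* window held 3 E2F matches, the most of the set, and the *TSO2* window none. The *RNR1* matches all lay after the start, and the last ones overlap each other. The deposited start of *TSO2* lies further into the gene than the start of its window, so the bases directly before it were not searched.

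The sliding clamp genes differed in the same way. *PCNA1* (AT1G07370) had 11.4 FPKM in WT IM and 35.4 in WT control, and 7.22 in *ros1* IM against 33.7 in *ros1* control. *PCNA2* (AT2G29570) had 19.9 FPKM in WT IM and 36.1 in WT control, and 18.3 in *ros1* IM against 31.5 in *ros1* control, so that nearly equal levels in both controls stood beside unequal ones after treatment. These are near-identical copies that may share reads. Of the A3-type cyclins, which act in S phase, both were called lower in *ros1* IM and 1 in WT IM. *CYCA3-1* (AT5G43080) had 2.63 FPKM in WT IM and 6.43 in WT control, and 1.22 in *ros1* IM against 6.67 in *ros1* control. *CYCA3-2* (AT1G47210) was 2.47-fold lower in *ros1* IM and 1.87-fold lower in WT IM than in the control of each genotype.

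Among the G2/M genes, *CYCB1-2* (AT5G06150) had the lowest ratio of the 50 in the wild type, with 1.91 FPKM in WT IM and 23.7 in WT control, a 12.4-fold difference. In *ros1* IM it had 0.0924 FPKM against 21.3 in *ros1* control. *CYCB1-3* (AT3G11520), of the same subfamily, had 0.840 FPKM in WT IM and 6.95 in WT control, and 0.156 in *ros1* IM against 5.75 in *ros1* control. *CYCB1-4* (AT2G26760) had 1.89 FPKM in WT IM and 10.7 in WT control. *CYCB1-1* (AT4G37490), the B-type cyclin most used as a reporter of dividing cells, stood apart from them. It had 6.15 FPKM in WT IM and 8.13 in WT control, and 2.76 in *ros1* IM against 8.63 in *ros1* control. It was thus the most abundant of the 9 B-type cyclins in both treated groups among those with a value, and its window held 3 MSA cores, as did that of *CYCB1-3*.

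The CYCB2 and CYCB3 genes were all lower in WT IM, and the 4 of them with a value were lower in *ros1* IM. *CYCB2-4* (AT1G76310) had 1.74 FPKM in WT IM and 9.27 in WT control, and 0.161 in *ros1* IM against 13.2 in *ros1* control. *CYCB2-2* (AT4G35620) had 1.18 FPKM in WT IM and 6.33 in WT control, and 0.649 in *ros1* IM against 6.71 in *ros1* control. *CYCB2-3* (AT1G20610) was 6.09-fold lower in *ros1* IM and 4.36-fold lower in WT IM, a smaller gap between the genotypes than in *CYCB2-4*, which was 82.2-fold lower in *ros1* IM and 5.32-fold in WT IM. *CYCB3-1* (AT1G16330) had 0.396 FPKM in WT IM and 3.57 in WT control, and 0.0930 in *ros1* IM against 3.60 in *ros1* control. *CYCB2-1* (AT2G17620) was the least abundant of the B-type cyclins in WT control and was 4.02-fold lower in WT IM.

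Of the A-type cyclins of this class, *CYCA2-3* (AT1G15570), which restrains the switch to DNA copying without division, had 1.35 FPKM in WT IM and 10.9 in WT control, and 0.348 in *ros1* IM against 9.82 in *ros1* control. *CYCA1-1* (AT1G44110) had 1.89 FPKM in WT IM and 11.6 in WT control, and *CYCA2-4* (AT1G80370) had 0.908 and 4.67, in the same order. *CYCA2-2* (AT5G11300) was near an FPKM of 1 in WT IM and 1.83-fold lower than in WT control. *CYCA2-1* (AT5G25380) was under the FPKM minimum in both wild-type groups.

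The B-type CDKs were lower in both genotypes and by unequal amounts. *CDKB2-1* (AT1G76540) had 4.14 FPKM in WT IM and 19.9 in WT control, and 0.299 in *ros1* IM, where *ros1* control stood close to WT control. *CDKB2-2* (AT1G20930) had 3.12 FPKM in WT IM and 14.5 in WT control, and 2.10 in *ros1* IM against 15.0 in *ros1* control. *CDKB2-1* was thus 67.4-fold lower in *ros1* and 4.82-fold in the wild type, and *CDKB2-2* was 7.14-fold lower in *ros1* and 4.65-fold in the wild type. *CDKB1-1* (AT3G54180) had 4.50 FPKM in WT IM and 10.3 in WT control, and 0.680 in *ros1* IM against 11.2 in *ros1* control. *CDKB1-2* (AT2G38620) had 0.878 FPKM in WT IM and 6.63 in WT control, and 0.219 in *ros1* IM against 4.78 in *ros1* control. *CDKA-1*, the kinase that works through all phases, had 40.8 FPKM in WT IM, 45.4 in WT control and 53.8 in *ros1* control.

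Aurora kinases guide chromosome segregation and the orientation of division. *AUR1* (AT4G32830) had 2.01 FPKM in WT IM and 15.6 in WT control, and 0.192 in *ros1* IM against 15.1 in *ros1* control. *AUR2* (AT2G25880), its near copy, had 1.69 FPKM in WT IM and 12.0 in WT control. *AUR3* (AT2G45490) had 1.03 FPKM in WT IM and 4.09 in WT control.

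Cytokinesis genes were among those with the least transcript left in *ros1*. *HIK* (AT1G18370), the HINKEL kinesin that expands the cell plate, had 1.31 FPKM in WT IM and 14.9 in WT control, and 0.0983 in *ros1* IM against 14.5 in *ros1* control. *KN* (AT1G08560), the KNOLLE syntaxin that fuses vesicles at the plate, had 6.70 FPKM in WT IM and 60.4 in WT control. It is listed at 0 in *ros1* IM against 22.9 FPKM in *ros1* control, so no ratio is given.

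*CDC20.1* (AT4G33270) and *CDC20.2* (AT4G33260), activators of the anaphase-promoting complex, departed from the rest of the class. *CDC20.1* had 5.12 FPKM in *ros1* IM and 3.05 in WT IM, with 19.2 in *ros1* control and 28.9 in WT control. *CDC20.2* had 3.70 FPKM in *ros1* IM and 2.18 in WT IM, with 17.6 in *ros1* control and 11.2 in WT control. They are neighbouring near-identical genes that may share reads. Of the 18 G2/M genes with values in all groups, they alone had more transcript in *ros1* IM than in WT IM.

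**Figure D3:**
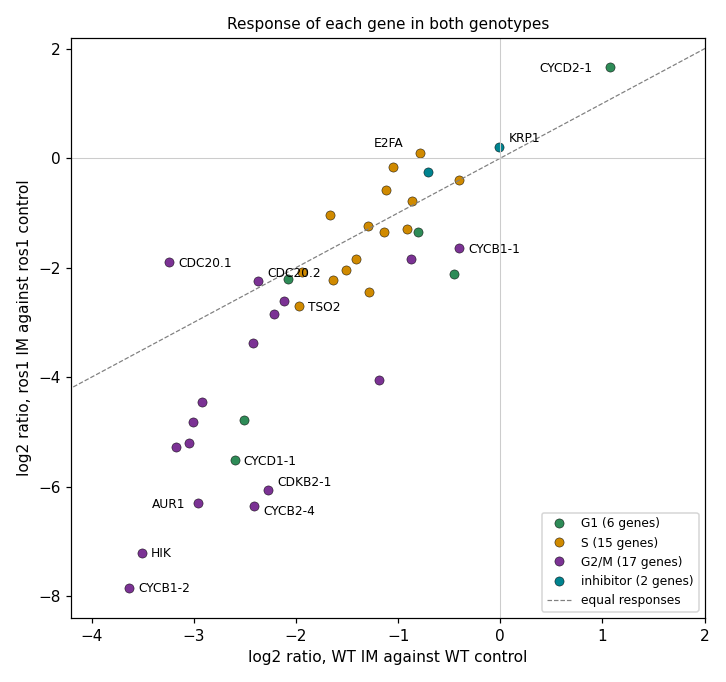
Log2 ratio of *ros1* IM against *ros1* control (vertical axis) and of WT IM against WT control (horizontal axis) for 40 genes, coloured by class, with a dashed line where both are equal. G2/M genes such as *CYCB1-2* (−7.85 and −3.63) lie far below the line, S genes lie around it, and *CDC20.1* (−1.90 and −3.24) lies above it. *KN* is left out because it is listed at 0.

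Set gene by gene against the wild type, the response of *ros1* was more negative in 16 of 18 G2/M genes, in 5 of 6 G1 genes and in 8 of 15 S genes. The median of the log2 ratio in *ros1* minus that in the wild type was −1.96 for G2/M, −1.11 for G1 and −0.15 for S. A gap of at least 1 on the log2 scale below the wild type was found in 12 of 18 G2/M genes, or 66.7%, and in 3349 of 16589 genes with sufficient FPKM and values in all groups, whose median difference was −0.09. In *ros1* IM 14 of the 18 G2/M genes were under an FPKM of 1, against 0 of the 15 S genes. Most of the 12 gaps therefore rest on such low values, and so does the contrast with the S class. With no spread between libraries in the files, none of these differences was tested. Over the 18 G2/M genes with values in all groups the wild-type median was −2.67, and since these genes have a value through the authors' marking, the gap between the genotypes does not speak for the other 7.

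Within the G2/M class the ratios of genes with and without an MSA core overlapped in both genotypes. The wild-type median was −2.55 for the 16 genes with a core and −2.36 for the 9 without. In *ros1* the medians were −5.20 for 11 genes and −4.45 for 7. *CYCB2-4* and *CDKB2-1*, with ratios of −6.36 and −6.07 in *ros1*, had no core in the window, and *CYCB1-1* had 3. In the S class, the 8 genes with an E2F site had a wild-type median of −1.21 and the 7 without had −1.64, and in *ros1* the medians were −1.29 and −1.30.

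The 3 CDK inhibitors of the set were within 2-fold of their controls wherever they have values. *KRP1* (AT2G23430) had 25.2 FPKM in WT IM and 25.3 in WT control, and 37.3 in *ros1* IM against 32.2 in *ros1* control. *SMR1* (AT3G10525) had 111 FPKM in WT IM, 115 in WT control and 114 in *ros1* control. *SIM* (AT5G04470), which promotes DNA copying without division in leaf hairs, had 9.01 FPKM in WT IM and 14.7 in WT control, and 5.23 in *ros1* IM against 6.25 in *ros1* control.

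**Figure D4:**
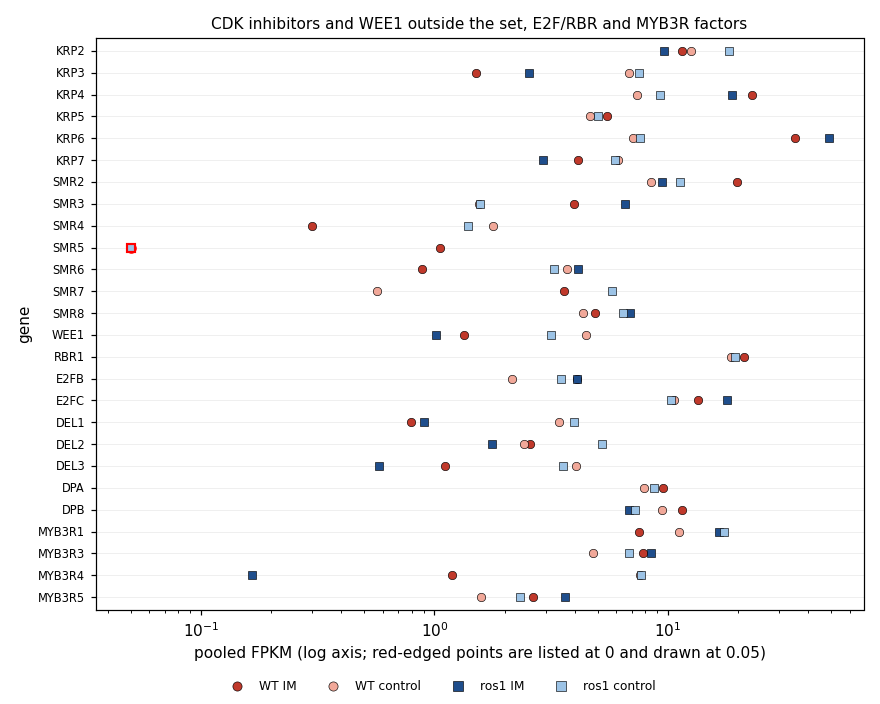
Pooled FPKM on a log axis of 14 further inhibitors of CDK activity (the KRP and SMR families and WEE1) and 12 E2F, retinoblastoma, DP and MYB3R genes in the 4 groups. *KRP6* stands higher in both treated groups, *MYB3R4* is the lowest of the MYB3R genes after treatment, and *SMR5* is listed at 0 in both control groups and drawn at 0.05.

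For the lists outside the set, the shares over all genes to set beside each count are 18.7% lower and 14.8% higher in WT IM against WT control, and 26.8% lower and 20.7% higher in *ros1* IM against *ros1* control. The 14 further inhibitors were divided, with 4 lower and 6 higher in WT IM against WT control (median 0.20) and 3 lower and 3 higher of 10 in *ros1* IM against *ros1* control (median −0.07). *KRP6* (AT3G19150) had 35.0 FPKM in WT IM and 7.09 in WT control, and 48.8 in *ros1* IM against 7.59 in *ros1* control. *SMR3* (AT5G02420) had 3.95 FPKM in WT IM and 1.55 in WT control, and 6.54 in *ros1* IM against 1.57 in *ros1* control. *KRP3* (AT5G48820) went the other way, with 1.5 FPKM in WT IM and 6.79 in WT control, and 2.54 in *ros1* IM against 7.55 in *ros1* control. *SMR7* (AT3G27630) had 3.59 FPKM in WT IM and 0.568 in WT control, but 5.74 already in *ros1* control. Of the wild-type calls, *SMR7* and *SMR5* (1.06 FPKM in WT IM and 0 in WT control) passed the FPKM minimum only through WT IM. *SMR4* (AT5G02220) and *SMR6* (AT5G40460) passed it only through WT control.

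Of 12 genes of the E2F, retinoblastoma and MYB3R group, 3 were lower and none higher in WT IM (median 0.22), and 4 of 10 were lower in *ros1* IM (median −0.07). *MYB3R4* (AT5G11510), an activator of mitotic genes, had 1.19 FPKM in WT IM and 7.61 in WT control, and 0.166 in *ros1* IM against 7.71 in *ros1* control. *MYB3R1* (AT4G32730), which can activate or repress them, had 7.5 FPKM in WT IM and 11.2 in WT control, and 16.6 in *ros1* IM against 17.4 in *ros1* control. The repressor *MYB3R5* (AT5G02320) had 2.65 FPKM in WT IM and 1.58 in WT control, and 3.62 in *ros1* IM against 2.32 in *ros1* control. *DEL1* (AT3G48160), an atypical E2F that restrains DNA copying without division, was lower in WT IM (0.797 against 3.43 FPKM in WT control) and in *ros1* IM (0.906 against 3.97 in *ros1* control).

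Of 14 further replication genes, 4 were lower and none higher in WT IM (median −0.69), and 4 of 10 were lower in *ros1* IM (median −0.48). The helicase factor *CDC45* (AT3G25100) had 0.969 FPKM in WT IM and 5.41 in WT control, and 1.19 in *ros1* IM against 3.03 in *ros1* control. Of 13 histone H3.1 and H4 genes, which are transcribed with DNA synthesis, 12 were lower in each genotype, with a median of −1.98 in *ros1* IM and −1.69 in WT IM. Their summed level was 859 FPKM in WT IM and 2531 in WT control, and 634 in *ros1* IM against 2037 in *ros1* control. Reads of these near-identical histone genes may be split between copies.

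Other partners of the cycle gave mixed values. Of 9 CDK subunits, activating kinases and CCS52 activators of the anaphase-promoting complex, 3 were lower and none higher in WT IM (median −0.40), and 3 of 8 were lower and none higher in *ros1* IM (median −0.40). *CCS52B* (AT5G13840), the mitotic one, had 2.44 FPKM in WT IM and 17.8 in WT control, and 5.71 in *ros1* IM against 21.5 in *ros1* control. Treated *ros1* thus had more of it than the treated wild type, as with both CDC20 genes. Of the 4 other D-type cyclins, *CYCD6-1* (AT4G03270) had 0.468 FPKM in WT IM and 7.78 in WT control, and 0.226 in *ros1* IM against 5.35 in *ros1* control.

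Marker genes of the cell types in a rosette also differed between the groups. In bulk tissue, fewer dividing cells and less transcript per dividing cell cannot be told apart. Among 6 genes of the shoot meristem, 1 was lower in WT IM, and 4 of 5 with a value were lower in *ros1* IM. *STM* (AT1G62360), which maintains the meristem, had 4.58 FPKM in WT IM and 3.93 in WT control, but 0.204 in *ros1* IM against 4.34 in *ros1* control. *KNAT1* (AT4G08150) had 3.49 FPKM in WT IM and 2.26 in WT control, and 0.704 in *ros1* IM against 2.77 in *ros1* control. *CLV1* (AT1G75820), the most abundant of the list, had 9.56 FPKM in WT IM and 25.3 in WT control, and 3.39 in *ros1* IM against 21.2 in *ros1* control. The list's median log2 ratio in WT IM against WT control was 0.28 over 6 genes, of which 4 passed the FPKM minimum. In *ros1* IM against *ros1* control the median was −2.65 over 5 genes. The summed level of the 5 genes with values in all groups, in which *CLV1* alone was lower in WT IM than in WT control among the genes above an FPKM of 1, was 20.6 FPKM in WT IM and 33.9 in WT control, and 5.95 in *ros1* IM against 31.5 in *ros1* control. *CLV3* was listed at 0 in both treated groups, with 0.0998 FPKM in WT control and 1.03 in *ros1* control. It thus counts as lower in *ros1* IM only through a value near the minimum. *WUS* was near 0 in the 3 groups with a value.

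Among 7 genes of proliferating young leaves, 6 were lower in WT IM, and 4 of 4 with a value were lower in *ros1* IM. *ANT* (AT4G37750), which prolongs division in young organs, had 4.27 FPKM in WT IM and 18.3 in WT control, and 0.126 in *ros1* IM against 18.9 in *ros1* control. The growth factor gene *GRF3* (AT2G36400) had 6.69 FPKM in WT IM and 5.97 in WT control, but 0.565 in *ros1* IM against 8.14 in *ros1* control. The summed level of the 4 genes was 18.5 FPKM in WT IM and 45.3 in WT control, and 4.59 in *ros1* IM against 46.2 in *ros1* control. The same sum over the 18 G2/M genes was 43.8 FPKM in WT IM and 259 in WT control, and 18.2 in *ros1* IM against 217 in *ros1* control. The part of these markers in the result for the mitotic genes was not tested.

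Photosynthesis genes taken as markers of mature leaf showed lower levels as well. No tissue was separated, so their values do not speak for tissue that no longer divides. All 3 photosynthetic markers of mature leaf were lower in both genotypes, with a summed level of 7222 FPKM in WT IM and 33579 in WT control, and 1271 in *ros1* IM against 33720 in *ros1* control. The 4 flower markers with values in the wild type were under an FPKM of 1, and of 4 root markers *PLT1* and *PLT2* were at 0 in the 3 groups with a value. The other root markers, which the rosette also expresses, were lower in both genotypes, with 5.77 FPKM of *SHR* (AT4G37650) in WT IM and 13.8 in WT control, and 9.39 FPKM of *SCR* (AT3G54220) in WT IM and 21.5 in WT control. Among 6 common reference genes, *ACT2* (AT3G18780) had 184 FPKM in WT IM and 501 in WT control, and 192 in *ros1* IM against 483 in *ros1* control, while *UBQ10* (AT4G05320) was higher, with 1675 FPKM in WT IM and 712 in WT control, and 588 in *ros1* IM against 163 in *ros1* control. The other 4 were within 2-fold in either response. Relative to the all-gene median of 0.16 in *ros1* IM against *ros1* control, no class median changed sign, and 33 genes of the set were still lower and 1 higher.

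For 5 genes of the set the deposited locus also covers overlapping neighbours (*E2FA*, *MCM7*, *PCNA2*, *CDKB1-2* and *CDKB2-1*), and the library kit did not mark the strand, so their values may hold reads of another gene.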

How the data were processed

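The authors trimmed single-end reads, mapped them to TAIR10 with Bowtie2 and TopHat2 and quantified them with Cufflinks. The paper reports that a smaller share of *ros1* reads than of wild-type reads aligned, and what this does to comparisons of the genotypes was not tested. The submitters' processing notes name FastQC 0.10.1, and other versions are not given in the sources used here. The deposited FPKM values were pooled by the authors over the 2 libraries of a group, and the deposited tables give no depth per library, so no error can be given. Of 7 tables, 1 lists all genes (for WT IM it breaks off on chromosome 5) and 6 list only genes marked significant. Values that it lacks were taken from the others, and all 157256 repeated values were equal. The authors' fold changes, p-values and q-values were not used.

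Ratios were computed without a pseudocount in Python 3.11.15 with pandas 2.3.3, and the calls were tested on simulated data. Members and lists were chosen with earlier results of these data known. All members may be named, and from each other list up to 4 genes per comparison with the largest absolute log2 ratio, plus *ROS1*. *CLV3*, *WUS*, *SMR5*, *RNR2A*, *PLT1* and *PLT2* were named after their values were seen. Motifs were searched in TAIR10.1, where all 26693 genes compared overlap the deposited loci. Of these, 7393 have the same lower coordinate and 7321 the same upper one. Many windows are thus placed by another gene start than the deposited one. Alternatives were other folds, FPKM minimums and pseudocounts, centring on all genes, and genes with values in all groups. 1 gene of a list is not reported here.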

Additional observations from a re-analysis of the deposited data

How the results depend on the processing

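Under 8 alternatives, no class median changed sign. Of the recomputed counts and medians, 117 stayed within 1.5-fold of those reported and 19 moved further. At 4-fold, the genes lower in WT IM against WT control numbered 23 and the higher ones 0, and 0 were higher in *ros1* IM against *ros1* control. At 4-fold, 9 were lower in *ros1* IM against WT IM. With an FPKM of at least 5, the G1 median was −2.08 in WT IM against WT control and −0.50 in *ros1* IM against WT IM, where 3 genes were then lower and the G2/M median was −1.16. With a pseudocount of 1, the G2/M median was −2.46 in *ros1* IM against *ros1* control and −1.94 in WT IM against WT control. These lie closer together than the reported medians of the genotypes. In *ros1* IM against WT IM the G2/M median was −0.74 at this setting, since the added value weighs most on FPKM near 0. At 1.5-fold, 4 genes were higher in *ros1* IM against WT IM. In *ros1* control against WT control, 10 genes were lower and 2 higher at 1.5-fold, and 0 and 0 at 4-fold. The 1 gene higher there was no longer called (0) with an FPKM of at least 5, with either pseudocount (1 or 0.1) and among genes with values in all groups. Shares over all genes were computed only at 2-fold with an FPKM of at least 1, so the counts at other settings have no share to be set beside. Other causes were not tested.

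No paired analysis was possible because the deposited values are pooled over the libraries of a group, and for the same reason no library was left out. The pooled values limit every statement to these libraries. Low FPKM in *ros1* IM make the largest ratios the least certain ones.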

Other observations

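Genes of the DNA damage response, which can halt the cycle, gave values in both directions. Of 4 such genes, 1 was lower and 2 higher in WT IM against WT control, and 1 was lower and 1 higher in *ros1* IM against *ros1* control. *GMI1* (AT5G24280), a gene known to be induced by DNA breaks, had 17.9 FPKM in WT IM and 0.977 in WT control, and 17.9 in *ros1* IM against 1.41 in *ros1* control. *XRI1* (AT5G48720) had 16.7 FPKM in WT IM and 8.20 in WT control, and 13.2 in *ros1* IM against 10.4 in *ros1* control. The repair gene *BRCA1* (AT4G21070) was lower in both genotypes. It had 1.70 FPKM in WT IM and 5.09 in WT control, and 1.07 in *ros1* IM against 3.35 in *ros1* control.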
